A study of Mus musculus with 12 samples.

Results

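The SLC25 family of mitochondrial carriers was followed in the livers of mice that lack the glucocorticoid receptor (GR) there and had received the human GR beta isoform by viral transfer. Its members were all genes with a non-control probe named Slc25a followed by a digit, by the array's own gene name or by the current symbol of the probe's RefSeq accession. The array held 44 such genes, among 28786 distinct gene names, on 70 probes. Of these, 32 were found by the array's name and 12 only by the current symbol. The scanner software's call of well above background was met on 4 or more of the 12 arrays by 58 probes of 41 genes, and these were tested. Slc25a36, Slc25a40 and Slc25a41 were not tested, on any of their probes.

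The 12 liver samples fell into 3 groups of 4. AAV-hGRB mice received an adeno-associated virus carrying human GR beta, a splice isoform that binds no glucocorticoid. AAV-GFP mice received the same kind of virus carrying green fluorescent protein, and PBS mice received buffer. Every group, controls included, had the GR knockout genotype, and all were male C57BL/6 mice aged 3 months. The Cre driver behind the knockout, the vector dose, the promoter in the vector and the time after injection were not stated in the labels. Nor do the labels state that the 4 samples of a group are 4 animals, so any p-value here covers the spread between samples, which may be technical. In whole liver RNA, fewer cells of a type and less RNA per cell cannot be told apart.

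SLC25 proteins are the main transporters of the inner mitochondrial membrane. Each carries 1 class of small molecule, such as ADP and ATP, phosphate, keto acids, amino acids, carnitine esters or cofactors, and most work as exchangers. In liver they link the cytosol to the urea cycle, gluconeogenesis, fatty acid oxidation and haem synthesis. Slc25a25 encodes an ATP-Mg/phosphate carrier, also called SCaMC-2, that is gated by calcium and can change the amount of adenine nucleotide in the matrix. It was chosen by its log2 change in AAV-hGRB against AAV-GFP livers, the measured value on which the family came to be examined, so its values are given as a description with no test, and the comparison of AAV-GFP with PBS shares those AAV-GFP arrays.

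The array measured Slc25a25 with 3 probes, all on the minus strand of chromosome 2. By the array design's coordinates on the mouse build mm7, A_51_P193173 lay at chr2:32422066-32422125, A_51_P193176 at chr2:32422402-32422461 and A_52_P359088 at chr2:32424723-32425052. The last of these is a 60-base probe whose coordinates cover 330 bases of genome, so it crosses an intron. It is shown because it reads a different stretch of the transcript from the other two probes.
A_52_P359088: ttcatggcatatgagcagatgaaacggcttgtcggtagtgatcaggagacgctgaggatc

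RefSeq lists 3 start sites for Slc25a25 on GRCm38.p6. The 250 bases before each are shown because the AAV-GFP livers differed from both other groups on every probe of this gene. Capitals mark TGACGTCA, the palindromic cAMP response element (CRE) bound by CREB family factors, searched on both strands.
Slc25a25 start site 1, chr2:32451471-32451720, minus strand: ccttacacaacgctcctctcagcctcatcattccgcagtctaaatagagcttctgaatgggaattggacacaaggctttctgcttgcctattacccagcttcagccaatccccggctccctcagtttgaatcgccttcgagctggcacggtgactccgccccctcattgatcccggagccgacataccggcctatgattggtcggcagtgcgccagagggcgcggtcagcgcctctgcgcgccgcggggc
Slc25a25 start site 2, chr2:32431152-32431401, minus strand: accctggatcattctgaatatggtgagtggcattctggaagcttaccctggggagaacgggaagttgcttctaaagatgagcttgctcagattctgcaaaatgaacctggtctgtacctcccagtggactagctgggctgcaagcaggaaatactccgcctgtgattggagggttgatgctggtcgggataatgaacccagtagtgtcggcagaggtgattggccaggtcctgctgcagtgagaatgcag
Slc25a25 start site 3, chr2:32424067-32424316, minus strand: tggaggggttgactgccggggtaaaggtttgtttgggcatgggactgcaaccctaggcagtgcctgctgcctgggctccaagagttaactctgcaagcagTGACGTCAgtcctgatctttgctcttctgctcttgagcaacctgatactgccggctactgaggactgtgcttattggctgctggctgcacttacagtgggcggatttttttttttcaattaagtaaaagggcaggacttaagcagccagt

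The window of start site 3 holds a single CRE, beginning 150 bases before the start site, and the other two windows hold none. Over all RefSeq promoter windows of 300 bases, which run from 250 bases before to 50 bases after a start site, 1.79% of 32851 windows hold the CRE. Of the 44 member genes, 33 matched this table by symbol, with 42 windows. The CRE was found in 2 of these 33 genes (6.06%), Slc25a25 and Slc25a36, against 2.03% of all 27025 genes in the table. The E-box CACGTG was found in 7 of the 33 genes (21.2%), against 8.09% of all genes. The palindromic NRF-1 motif, bound by a regulator of many mitochondrial genes, was in none of them and in 1.07% of all genes. The palindromic glucocorticoid response element was in none of the 33 genes and in 0.0111% of all genes. A match is a description of letters only, and both strands were searched for each motif.

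Levels below are log2 processed intensity on a scale that sets each array's 75th percentile to 0, so a difference of 1 is a doubling. The brightest tested probe stands for a gene with several. AAV-GFP replicate 3 stood apart from the rest. Its 75th percentile intensity was 209, against 349 to 598 on the other 11 arrays, and its mean correlation with the other arrays was 0.933, against 0.959 to 0.975. It held the lowest of the 12 values for 13 of the 41 carriers and the highest for 9, so several changes against AAV-GFP that it moved are given with and without it. The targeted gene Nr3c1 was measured by 4 probes, and the levels of the 3 groups overlapped on each of them. Which part of the gene was deleted was not stated in the labels, so these probes do not check it. The 7 hepatocyte markers tested had mean levels of 7.66 to 7.78 in AAV-hGRB, 7.54 to 8.09 in AAV-GFP and 7.64 to 8.19 in PBS livers. Their change was below 0 for 6 of 7 against AAV-GFP (median -0.16) and for 5 of 7 against PBS (median -0.14), and Tat lay wholly below AAV-GFP (-0.75). The part of the hepatocyte share in the carriers' values was not tested.

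Across the family, most carriers lay a little lower in AAV-hGRB livers than in either control, and none passed the test. In AAV-hGRB against AAV-GFP, limma called 0 of 26593 probes (0%) at an adjusted p under 0.05, with 892 (3.35%) at an unadjusted p under 0.05. The log2 change was below 0 for 33 of 41 carriers (80.5%), against 56.5% of all probes, and its median was -0.19, against -0.05 over all probes. Its median standard error was 0.27. In AAV-hGRB against PBS, 0 of 26593 probes (0%) were called and 1553 (5.84%) had an unadjusted p under 0.05. There, 31 of 41 carriers (75.6%) had a change below 0, against 57.2% of all probes, and the median was -0.17, against -0.06. In AAV-GFP against PBS, 0 of 26593 probes (0%) were called and 448 (1.68%) had an unadjusted p under 0.05. The split there was even, with 22 carriers above 0 and 19 below, and the median was 0.02, against 0.00. The 2 AAV-hGRB comparisons share the AAV-hGRB arrays, and each control group enters 2 of the 3 comparisons.

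Leaving out Slc25a25, the lowest adjusted p among the other 40 carriers was 0.998 in AAV-hGRB against AAV-GFP, 0.815 in AAV-hGRB against PBS and 0.999 in AAV-GFP against PBS. The median level of the 41 carriers on each array was 1.33, 1.16, 1.09 and 1.10 in AAV-hGRB livers. It was 1.36, 1.45, 1.38 and 1.43 in AAV-GFP livers and 1.51, 1.24, 1.48 and 1.20 in PBS livers. The AAV-hGRB medians lay below all 4 AAV-GFP medians and overlapped those of PBS. Without AAV-GFP replicate 3, the median change in AAV-hGRB against AAV-GFP was -0.23 and 35 of 41 carriers were below 0. Within slide 5 the median was -0.33 and within slide 6 it was 0.00, each from 1 array per group, and slide 6 holds AAV-GFP replicate 3.

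**Figure D1:**
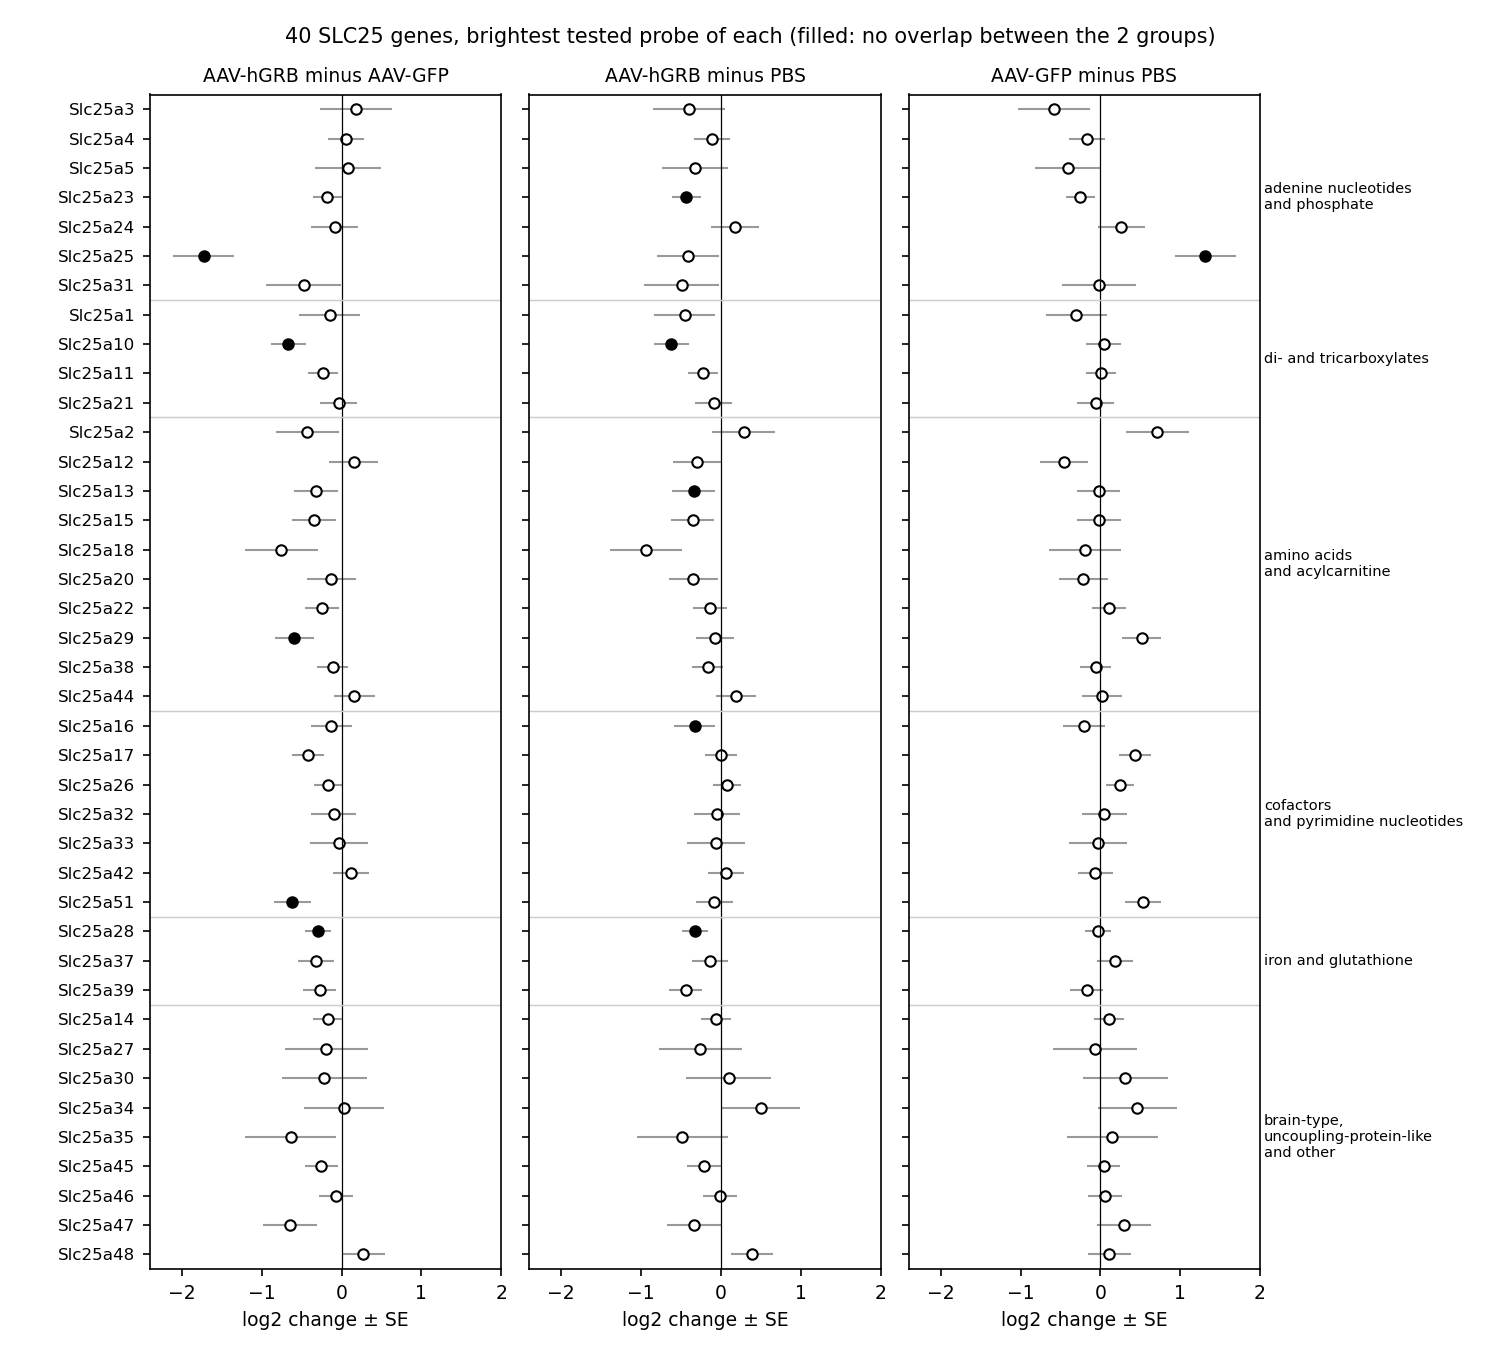
Log2 change with its standard error for 40 of the 41 tested SLC25 genes, by the molecules carried, in AAV-hGRB minus AAV-GFP, AAV-hGRB minus PBS and AAV-GFP minus PBS (4 arrays per group). Filled points are genes with no overlap between the 2 groups; in AAV-hGRB minus AAV-GFP the changes run from -1.73 for Slc25a25 to 0.27 for Slc25a48, and most lie left of 0.

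Groups that do not overlap were counted as a second description. In AAV-hGRB against AAV-GFP, 5 of 41 carriers (12.2%) had all 4 AAV-hGRB arrays below all 4 AAV-GFP arrays, and none lay wholly above. Slc25a25 was chosen on this contrast, and without it the count was 4 of 40 (10%). Over all probes, 793 of 26593 (2.98%) did not overlap, with 515 (1.94%) wholly below and 278 (1.05%) wholly above. The 5 carriers were Slc25a10, Slc25a25, Slc25a28, Slc25a29 and Slc25a51. In AAV-hGRB against PBS, 5 carriers lay wholly below, namely Slc25a10, Slc25a13, Slc25a16, Slc25a23 and Slc25a28, and none lay wholly above. Over all probes, 1221 (4.59%) did not overlap, with 652 (2.45%) wholly below and 569 (2.14%) wholly above. In AAV-GFP against PBS, Slc25a25 alone among the 41 carriers was apart, with AAV-GFP above PBS, where 250 of all probes (0.94%) did not overlap, 155 (0.583%) above and 95 (0.357%) below. Slc25a10 and Slc25a28 were below both control groups. This count depended on scaling: Slc25a10 overlapped PBS with quantile scaling, and Slc25a28 overlapped both controls with median scaling and with normexp background correction.

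The ATP-Mg/phosphate carrier Slc25a25 had the largest difference between groups in the family, and AAV-GFP livers were the high group. On A_51_P193173 its level was 3.20, 4.71, 2.72 and 3.13 in AAV-hGRB livers. It was 5.71, 4.75, 5.33 and 4.89 in AAV-GFP livers, and 3.52, 3.93, 4.23 and 3.73 in PBS livers. AAV-hGRB and PBS overlapped, while every AAV-GFP array lay above every array of both other groups. Against AAV-GFP the AAV-hGRB mean was 3.32-fold lower (log2 change -1.73 ± 0.39, SE, n = 4 each), and against PBS the log2 change was -0.41. AAV-GFP was 2.49-fold higher than PBS (log2 change 1.32).

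The second probe of Slc25a25 gave the same order of groups. On A_51_P193176 the level was 1.93, 2.95, 1.62 and 1.65 in AAV-hGRB livers, against 4.25, 2.95, 4.11 and 3.19 in AAV-GFP and 1.84, 2.49, 2.86 and 2.04 in PBS livers. AAV-hGRB replicate 2 and AAV-GFP replicate 2 differed only past the second decimal. The intron-crossing probe printed above, A_52_P359088, read -3.26, -2.16, -3.20 and -3.28 in AAV-hGRB livers, against -1.20, -1.98, -1.42 and -2.04 in AAV-GFP and -2.57, -2.69, -2.48 and -3.10 in PBS livers. On these 2 probes the log2 change was -1.58 and -1.31 in AAV-hGRB against AAV-GFP, and 1.31 and 1.05 in AAV-GFP against PBS. AAV-hGRB replicate 2 was the highest of its group on all 3 probes.

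Without AAV-hGRB replicate 2, the log2 change of A_51_P193173 was -2.15 against AAV-GFP and -0.83 against PBS, and all 3 remaining AAV-hGRB arrays then lay below all PBS arrays. Without AAV-GFP replicate 3, the change against AAV-GFP was -1.68. Within slide 5 it was -1.55 and within slide 6 it was -2.61. AAV-GFP against PBS stayed between 1.14 and 1.46 in every alternative on this probe that kept several slides, and was 1.02 to 1.77 within single slides. With normexp background correction the dim probe A_52_P359088 gave -0.49 against AAV-GFP and 0.09 for AAV-hGRB against PBS, so its sign against PBS turned. With quantile scaling, AAV-hGRB and AAV-GFP overlapped on A_51_P193173.

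**Figure D2:**
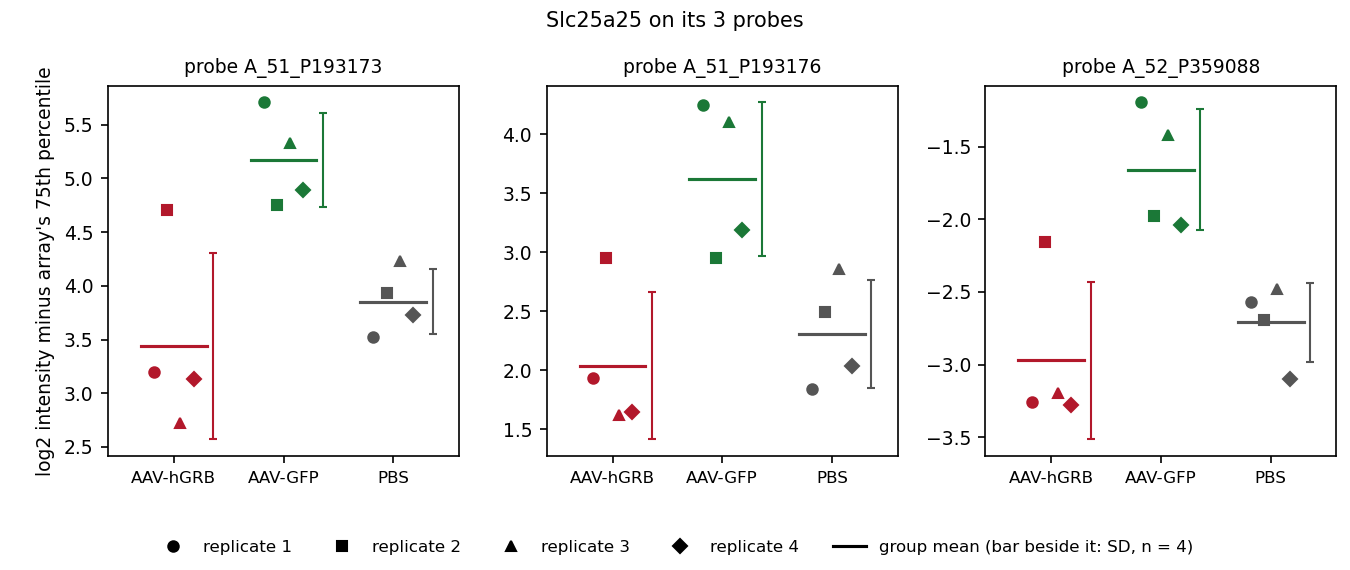
Level of Slc25a25 (log2 intensity, 75th percentile of each array set to 0) on each of its 3 probes, by array, in AAV-hGRB, AAV-GFP and PBS livers. Horizontal lines are group means and the bars beside them SD (n = 4); on every probe the 4 AAV-GFP arrays lie above the PBS arrays, and AAV-hGRB replicate 2 is the highest of its group.

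The other carriers of adenine nucleotides and phosphate showed small differences. Slc25a5, the main ADP/ATP exchanger of liver cells, had levels of 6.69, 7.03, 7.12 and 7.21 in AAV-hGRB livers, against 7.26, 7.55, 5.44 and 7.47 in AAV-GFP and 7.76, 7.43, 6.87 and 7.29 in PBS livers. Its log2 change in AAV-hGRB against AAV-GFP was 0.08 with AAV-GFP replicate 3 and -0.42 without it, when the groups no longer overlapped. Slc25a4, the ADP/ATP exchanger of heart and muscle, differed by 0.05 from AAV-GFP and -0.12 from PBS. Without AAV-GFP replicate 3 its change against AAV-GFP was -0.11, and its sign also turned under 4 other alternatives. For the phosphate carrier Slc25a3 the change in AAV-hGRB against AAV-GFP was 0.18, and -0.23 without AAV-GFP replicate 3. Its second probe gave 0.44 against PBS, where the brightest gave -0.40.

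Slc25a23, another ATP-Mg/phosphate carrier, read -1.87, -1.53, -1.35 and -1.25 in AAV-hGRB livers. It read -1.22, -1.47, -1.35 and -1.24 in AAV-GFP livers and -0.97, -1.03, -1.25 and -1.01 in PBS livers. AAV-hGRB lay below PBS by a log2 change of -0.44 ± 0.18 (SE), with the nearest arrays of the groups less than 0.01 apart. Slc25a24, also of this kind, differed by -0.09 from AAV-GFP and 0.18 from PBS. Slc25a31, an ADP/ATP exchanger known mainly from germ cells, was well above background on 0 of 4 AAV-hGRB arrays, 2 AAV-GFP arrays and 2 PBS arrays. Its AAV-GFP mean was 1.13-fold, and its PBS mean 1.14-fold, above a bound for AAV-hGRB (limma adjusted p = 0.998 and 0.954). For such a bound, the dim probe takes on each array the higher of its own level and the lowest level among probes well above background. Both means include arrays not well above background and the groups overlapped, so these folds are not lower limits. With normexp background correction the AAV-hGRB change turned to 0.08 against AAV-GFP and 0.14 against PBS.

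Among carriers of di- and tricarboxylates, all 4 had a change below 0 in AAV-hGRB against both AAV-GFP and PBS. Slc25a10, the dicarboxylate carrier that exchanges malate and succinate for phosphate, read 5.70, 5.44, 5.36 and 5.53 in AAV-hGRB livers. It read 5.85, 6.43, 6.36 and 6.06 in AAV-GFP livers and 6.19, 5.86, 6.63 and 5.84 in PBS livers. All AAV-hGRB arrays lay below all arrays of both controls, and the 2 control groups overlapped. Its log2 change was -0.67 ± 0.22 against AAV-GFP and -0.62 ± 0.22 against PBS (SE). The adjusted p of limma over all probes was 0.998 and 0.815. Within slide 5 it was -0.73 against AAV-GFP and -0.14 against PBS, and within slide 6 it was -1.003 and -1.27. Over the alternatives that kept several slides it ran from -0.84 to -0.47 against AAV-GFP and from -0.80 to -0.46 against PBS. Its sign never turned, which was fixed for leaving out 1 array or using 1 slide, because the groups did not overlap.

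Slc25a1, the citrate carrier that feeds cytosolic fatty acid synthesis, differed by -0.15 from AAV-GFP and -0.45 from PBS, and by -0.60 from AAV-GFP without AAV-GFP replicate 3. Slc25a11, the oxoglutarate and malate exchanger of the malate-aspartate shuttle, differed by -0.23 from each control, and by -0.16 from AAV-GFP without AAV-GFP replicate 3. Slc25a21, which carries oxoadipate, differed by -0.03 and -0.09. The ranges of AAV-hGRB and both controls overlapped for these 3 genes.

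In the group of amino acid and acylcarnitine carriers, 8 of 10 had a change below 0 in AAV-hGRB against AAV-GFP, and 8 of 10 against PBS. Slc25a29, a carrier of basic amino acids, read -0.52, -0.41, -0.97 and -0.70 in AAV-hGRB livers. It read -0.15, -0.30, 0.47 and -0.24 in AAV-GFP livers and -0.72, -0.33, -0.24 and -1.01 in PBS livers. AAV-hGRB lay below AAV-GFP and overlapped PBS. The log2 change was -0.59 ± 0.24 against AAV-GFP (SE, limma adjusted p = 0.998) and -0.07 against PBS, and 0.52 for AAV-GFP against PBS. Without AAV-GFP replicate 3 the change against AAV-GFP was -0.42. The second probe of Slc25a29 gave -0.30 against AAV-GFP. Slc25a47, a carrier expressed mainly in hepatocytes, is its direct neighbour among the protein-coding genes of chromosome 12 in the reference, and read 4.68, 6.14, 6.19 and 5.90 in AAV-hGRB livers. It read 6.54, 6.76, 6.05 and 6.12 in AAV-GFP livers and 6.19, 6.34, 6.24 and 5.51 in PBS livers, so AAV-hGRB replicate 1 was the lowest of 12 arrays. Its change was -0.64 against AAV-GFP and -0.34 against PBS, and -0.29 and 0.01 without that array.

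Slc25a13 (citrin) and Slc25a12 (aralar) exchange aspartate for glutamate and supply the urea cycle and the malate-aspartate shuttle. Slc25a13 read 4.15, 4.17, 4.35 and 4.38 in AAV-hGRB livers, against 4.84, 5.09, 3.69 and 4.71 in AAV-GFP and 4.42, 4.51, 4.59 and 4.89 in PBS livers. AAV-hGRB lay below PBS on every array, by -0.34 ± 0.27 (SE), and overlapped AAV-GFP only through AAV-GFP replicate 3. The change against AAV-GFP was -0.32 with that array and -0.62 without it. Slc25a12 differed by 0.15 from AAV-GFP and -0.30 from PBS, and by 0.01 from AAV-GFP without that array.

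The ornithine carrier Slc25a15, needed for the urea cycle, differed by -0.34 from AAV-GFP and -0.36 from PBS, within overlapping ranges, and by -0.21 from AAV-GFP without AAV-GFP replicate 3. Its relative Slc25a2 differed by -0.43 and 0.28, and by -0.16 from AAV-GFP without AAV-GFP replicate 3. With normexp background correction the Slc25a2 change against AAV-GFP turned to 0.16. The carnitine/acylcarnitine exchanger Slc25a20, which brings fatty acyl groups into the matrix, differed by -0.13 and -0.35, and by -0.43 from AAV-GFP without AAV-GFP replicate 3. The glutamate carrier Slc25a22 differed by -0.24 and -0.14, and the other glutamate carrier, Slc25a18, was well above background on 6 of 12 arrays. Slc25a18 differed by -0.75 from AAV-GFP and by -0.94 from PBS, the family's largest fall against PBS, within overlapping ranges. With normexp background correction its change against AAV-GFP turned to 0.02. Over the alternatives that kept several slides, its change against PBS ran from -1.24 to -0.07. Slc25a38, a glycine carrier that supplies haem synthesis, differed by -0.11 from AAV-GFP and -0.17 from PBS, within overlapping ranges. It read 1.71, 1.00, 1.09 and 1.10 in AAV-hGRB livers, and its 3 lower arrays lay below all 4 AAV-GFP and all 4 PBS arrays. With a slide term its change against AAV-GFP turned to 0.03. Slc25a44, a carrier of branched-chain amino acids, differed by 0.16 and 0.19.

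Cofactor and pyrimidine nucleotide carriers were below AAV-GFP for 7 of 8 genes and below PBS for 4 of 8. Slc25a51, which imports NAD, read 1.49, 1.67, 1.34 and 1.21 in AAV-hGRB livers. It read 1.79, 1.96, 2.53 and 1.88 in AAV-GFP livers and 1.12, 1.53, 1.92 and 1.46 in PBS livers. AAV-hGRB lay below AAV-GFP by -0.62 ± 0.23 (SE, limma adjusted p = 0.998) and overlapped PBS, with a change of -0.08. Without AAV-GFP replicate 3 the change against AAV-GFP was -0.45. AAV-GFP against PBS was 0.53, or 0.37 without that array. A probe that carries an older name of Slc25a51 and no RefSeq accession was not counted as a member; it gave 0.13 against AAV-GFP and 0.25 against PBS, with SD of 0.88, 1.20 and 0.76 in AAV-hGRB, AAV-GFP and PBS livers.

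Slc25a16, linked to coenzyme A supply, read 1.02, 0.88, 0.91 and 0.96 in AAV-hGRB livers, against 1.36, 1.45, 0.19 and 1.28 in AAV-GFP and 1.51, 1.24, 1.14 and 1.20 in PBS livers. AAV-hGRB lay below PBS by -0.33 ± 0.26 (SE) and, without AAV-GFP replicate 3, below the 3 other AAV-GFP arrays by -0.42. Slc25a17, a peroxisomal carrier, differed by -0.43 from AAV-GFP and 0.00 from PBS, with AAV-GFP above PBS by 0.43. The coenzyme A carrier Slc25a42 differed by 0.12 and 0.06.

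**Figure D3:**
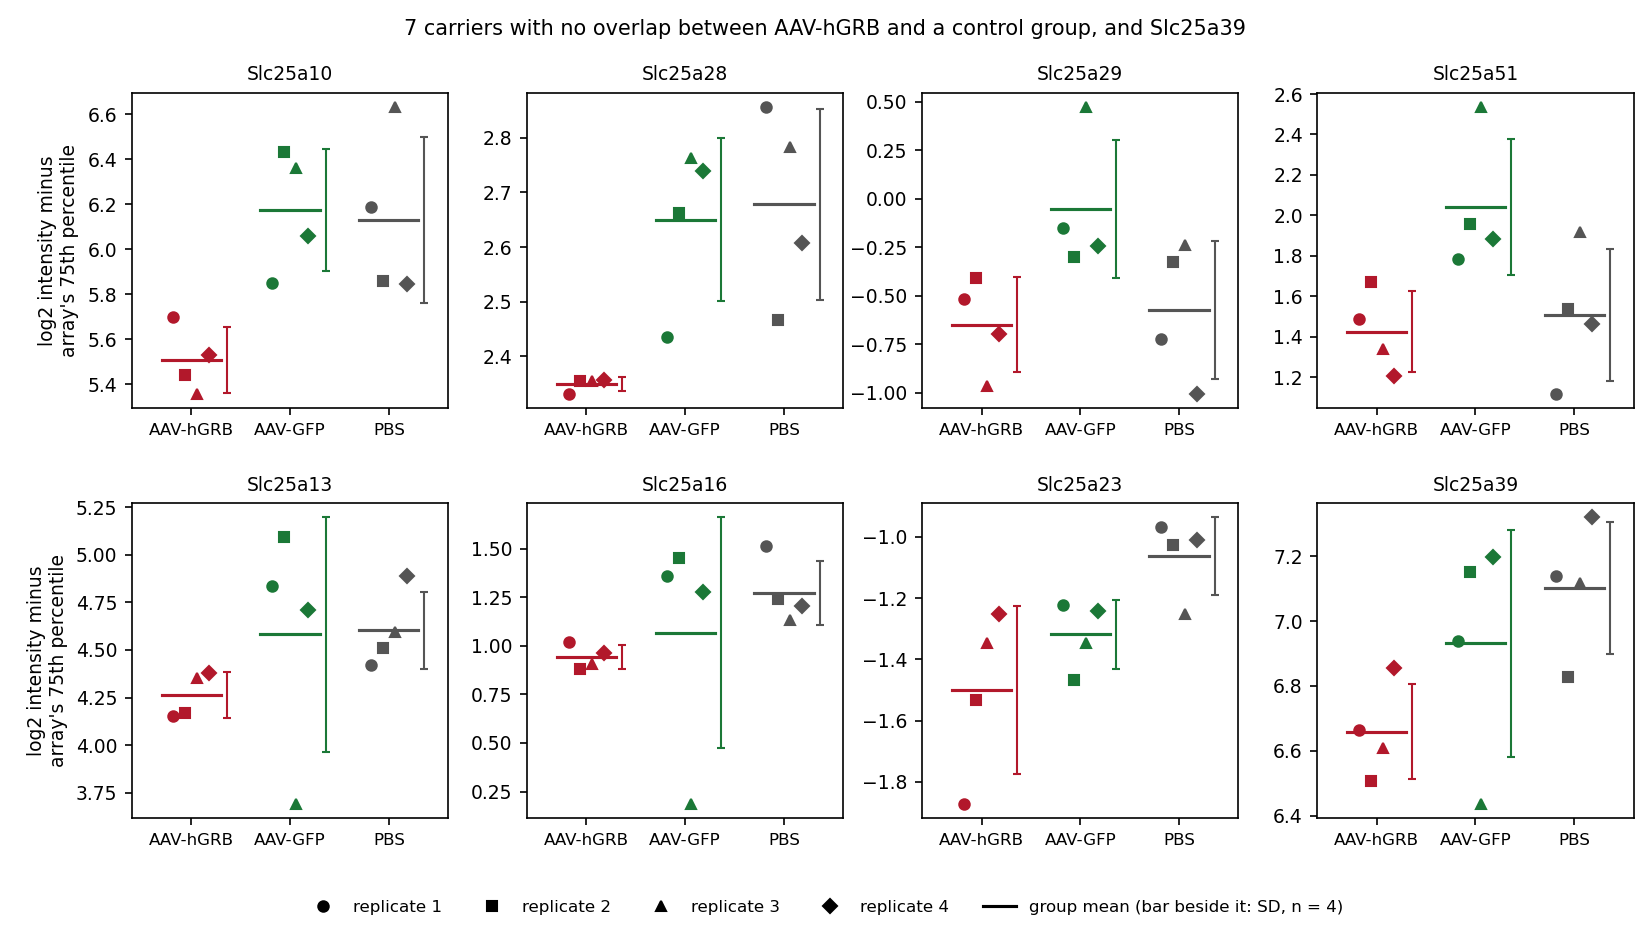
Level by array (log2 intensity, 75th percentile of each array set to 0) of 7 carriers with no overlap between AAV-hGRB and a control group, and of Slc25a39, in AAV-hGRB, AAV-GFP and PBS livers. Lines are group means and the bars beside them SD (n = 4); Slc25a28 read 2.33 to 2.36 on all AAV-hGRB arrays, and AAV-GFP replicate 3 is the lowest of its group for Slc25a13, Slc25a16 and Slc25a39.

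All 3 iron and glutathione carriers had changes below 0 in AAV-hGRB against both controls. Slc25a28, mitoferrin 2, imports iron into mitochondria and read 2.33, 2.36, 2.35 and 2.36 in AAV-hGRB livers. It read 2.44, 2.66, 2.76 and 2.74 in AAV-GFP livers and 2.86, 2.47, 2.78 and 2.61 in PBS livers. AAV-hGRB lay below both controls, by -0.30 ± 0.16 against AAV-GFP and -0.33 ± 0.16 against PBS (SE, limma adjusted p = 0.998 and 0.866). Within slides the change was -0.33 and -0.41 against AAV-GFP and -0.28 and -0.43 against PBS. Over the other alternatives it ran from -0.37 to -0.23 and from -0.41 to -0.23, with no turn of sign. Because the groups did not overlap, leaving out 1 array or using 1 slide could not turn it.

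Slc25a37, mitoferrin 1, the iron importer of erythroid cells, differed by -0.32 from AAV-GFP and -0.14 from PBS. It differed by -0.17 from AAV-GFP without AAV-GFP replicate 3, and by -0.0036 from PBS without AAV-hGRB replicate 4. Over its 3 probes the change ran from -0.36 to -0.19 against AAV-GFP and from -0.75 to -0.14 against PBS. The 5 erythroid markers tested had mean levels of 2.62 to 3.09 in AAV-hGRB, 2.91 to 3.39 in AAV-GFP and 2.73 to 3.95 in PBS livers. Their change was below 0 for 4 of 5 against AAV-GFP (median -0.55, with Hbb-bt free of overlap) and for 5 of 5 against PBS (median -0.68). Their part in the Slc25a37 values and in those of the haem genes was not tested. Slc25a39, which supplies glutathione to mitochondria, read 6.66, 6.51, 6.61 and 6.86 in AAV-hGRB livers, against 6.94, 7.15, 6.44 and 7.20 in AAV-GFP and 7.14, 6.83, 7.12 and 7.32 in PBS livers. It lay just outside the count against PBS, with its highest AAV-hGRB array 0.03 above its lowest PBS array, and differed by -0.44. Its second probe gave 0.43 against AAV-GFP, where the brightest gave -0.27, or -0.44 without AAV-GFP replicate 3.

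The last group holds uncoupling-protein-like and other members, of which 7 of 9 were below 0 against AAV-GFP and 6 of 9 against PBS, all within overlapping ranges. Slc25a45 differed by -0.26 from AAV-GFP and -0.21 from PBS. Slc25a48 differed by 0.27 and 0.39, which were the largest values above 0 against AAV-GFP and the second largest against PBS, where the dim Slc25a34 had 0.50. Without AAV-GFP replicate 3 Slc25a48 differed by 0.17 from AAV-GFP. Slc25a35 differed by -0.64 and -0.49, and by -0.10 from AAV-GFP without AAV-GFP replicate 3. With normexp background correction the Slc25a35 change against PBS turned to 0.22. The array design describes its brighter probe as a transcript of another gene, and its second probe gave -0.19 against AAV-GFP.

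**Figure D4:**
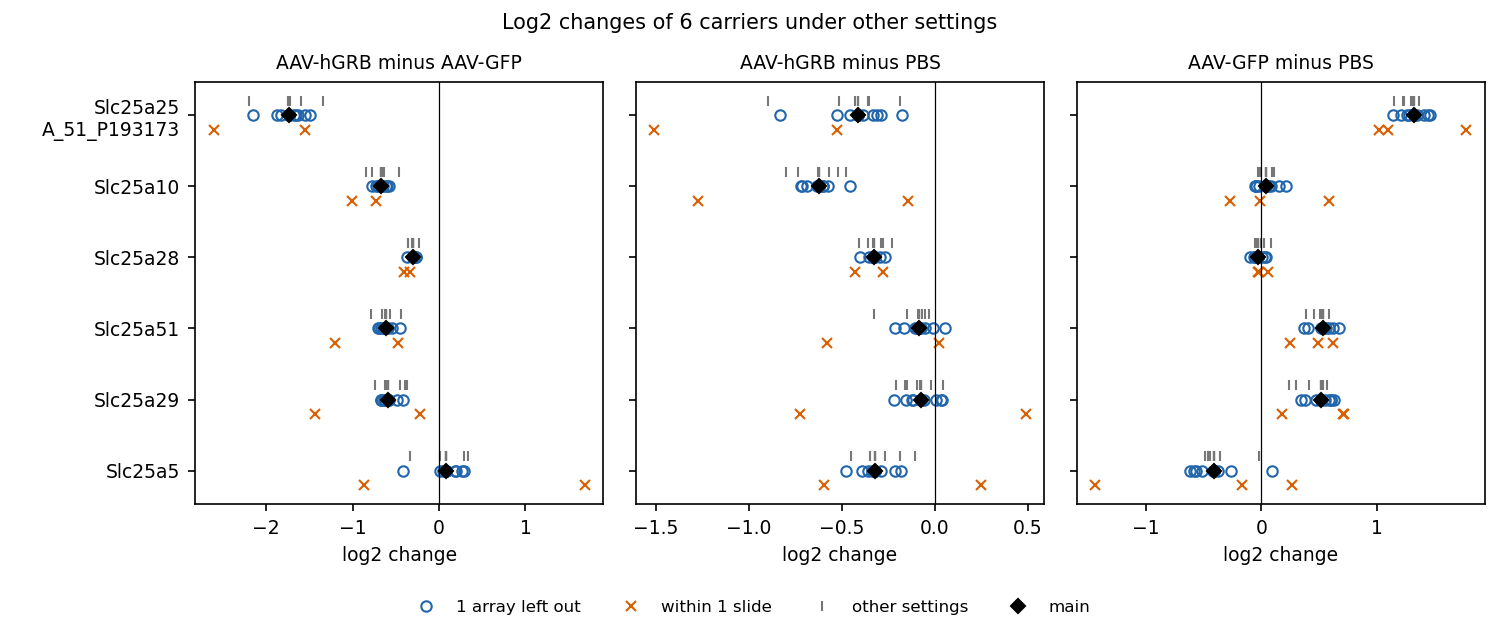
Log2 changes of Slc25a25 (probe A_51_P193173), Slc25a10, Slc25a28, Slc25a51, Slc25a29 and Slc25a5 in the 3 comparisons under every alternative: diamonds are the values reported, circles leave out 1 array, crosses use 1 slide and ticks are other settings. In AAV-hGRB minus AAV-GFP the first 5 genes stay below 0 in all of them, while Slc25a5 takes both signs. The first 5 had no overlap there, so leaving out 1 array or using 1 slide could not turn their sign.

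Genes that work beside the carriers were examined as 11 lists holding 96 tested genes, and none was called in any comparison. In AAV-hGRB against AAV-GFP, 72 of the 96 (75%) had a change below 0, against 56.5% of all probes. Their median was -0.19, against -0.05 over all probes. Against PBS 85 of 96 (88.5%) were below 0, where all probes gave 57.2%, and the median was -0.24, against -0.06. AAV-GFP against PBS had 60 of 96 (62.5%) below 0, against 49.4% of all probes, and a median of -0.08, against 0.00. The list medians in AAV-hGRB against AAV-GFP ran from -0.34 for urea cycle enzymes to -0.06 for carrier-fold genes with other names. The 3 tested there were Mtch1 (-0.06), Mtch2 (0.03) and the uncoupling protein Ucp2 (-0.33). Against PBS all 13 genes of the machinery that imports carriers into mitochondria were below 0, with a median of -0.29. All 12 genes of haem and iron-sulphur synthesis were also below 0 against PBS, with a median of -0.22.

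Without overlap between groups, 4 of the 96 genes were lower and 1 was higher in AAV-hGRB than in AAV-GFP livers, where all probes gave 1.94% lower and 1.05% higher. The lower ones were Atp5b, the catalytic subunit of ATP synthase (-0.25), the outer membrane channel Vdac1 (-0.27), Smdt1, a regulator of the calcium uniporter (-0.34), and the haem enzyme Ppox (-0.55). Pank3, which starts coenzyme A synthesis, was the higher one (1.15). Against PBS, 9 genes were lower, where all probes gave 2.45%. They included Atp5b (-0.26), the shuttle enzyme Got2 (-0.34), the urea cycle enzyme Asl (-0.76) and Oat, an enzyme of ornithine (-0.57).

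No marker of another cell type was called in any comparison, and their signs and levels are given as a description. All 7 Kupffer cell and macrophage markers had changes above 0 in AAV-hGRB against AAV-GFP (median 0.28) and against PBS (median 0.57). The 6 T and NK cell markers tested were all above 0 against AAV-GFP, with mean levels of -1.68 to -0.44 in AAV-hGRB and -2.08 to -1.53 in AAV-GFP livers. Of 4 endothelial markers, 3 were above 0 against AAV-GFP (median 0.43), and Kdr (0.53) and Lyve1 (0.72) did not overlap. The 2 skeletal muscle markers tested had mean levels of -5.02 to -4.23 in AAV-hGRB, -4.79 to -3.25 in AAV-GFP and -5.24 to 0.02 in PBS livers. The mean of the 2 adipocyte markers tested was at most -2.56 on AAV-hGRB arrays, -1.08 on AAV-GFP arrays and -0.07 on PBS arrays. Of 5 cholangiocyte markers, 4 were below 0 against AAV-GFP (median -0.87). The 4 neutrophil markers tested were all below 0 in AAV-GFP against PBS (median -1.13), and 3 of them did not overlap. The part of these cells in the carriers' values was not tested.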

How the data were processed

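Liver RNA (500 ng per sample, Qiagen RNeasy with DNase, Cy3, per the labels' protocols) was hybridised to 12 one-colour Agilent arrays. The deposited spot values are linear intensity, made with Agilent Feature Extraction 9.5.3.1 per the file headers (9.5 per the submitters' processing notes), with background subtracted. The authors' series matrix came without a stated scale, centring or direction. Its 520548 values equal that intensity within a relative tolerance of 1e-06, so its scale is linear and uncentred, and it was used as an alternative. Its column medians were 43.9, 50.9, 54.4 and 57.1 for AAV-hGRB replicates 1 to 4, 51.7, 43.6, 28.4 and 43.1 for AAV-GFP, and 67.1, 58.9, 38.9 and 47.9 for PBS.

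From 43379 non-control spots (1639 control spots were left out), log2 intensity was taken, spots of a probe were averaged (245 probes had several) and the array's 75th percentile was subtracted. Of 41174 probes, the 26593 with a well-above-background call on 4 or more arrays entered the test. Names came from RefSeq accessions (22951 probes matched; GRCm38.p6, names and promoters only) and otherwise from the array design. The fit was limma 3.58.1 in R 4.3.3 on all 12 arrays with 3 groups (9 residual degrees of freedom, two-sided, Benjamini-Hochberg over all probes, threshold 0.05), checked on simulated data. The number of arrays limits the precision. Slides, read from the files' array numbers, served as batches. The named genes were every probe of Slc25a25, every carrier without overlap, the 4 largest rises and falls per comparison and a set of liver carriers; Slc25a21 and Slc25a24 were added to complete their groups. The members, lists and tests were chosen with earlier results of these data known. Alternatives were other scaling, normexp background correction (offset 50), filters on dim probes, slide and replicate terms, array weights, other probe choices and leaving out each array. The values of 1 tested carrier are counted in the totals and not reported here.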

Additional observations from a re-analysis of the deposited data

Results flagged for a closer look

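In each group of 4 arrays, a level was picked out where 1 array lay so far from its nearest neighbour that the gap, as a share of the whole range, passed the 95% critical value of Dixon's test. Of 102 groups tested, 9 met this, and chance alone gives about 1 in 20. AAV-GFP replicate 3 was the far array for 3 of them, each time the lowest of its group: Slc25a5 read 5.436 (the other arrays 7.26 to 7.55), Slc25a1 read 2.460 (4.09 to 4.40) and Slc25a16 read 0.186 (1.28 to 1.45).

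AAV-hGRB replicate 2 read -2.160 on the intron-crossing probe of Slc25a25, where the others of the group read -3.28 to -3.20. AAV-hGRB replicate 1 read 1.712 for Slc25a38 (the others 1.00 to 1.10) and 2.331 for Slc25a28 (2.35 to 2.36). AAV-hGRB replicate 3 read -6.020 for Slc25a31, a probe not well above background on any AAV-hGRB array. AAV-GFP replicate 1 read -1.686 for Slc25a48 (-2.66 to -2.51), and PBS replicate 3 read 2.515 for Slc25a37, where the other 3 arrays read 2.456 to 2.464.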

How the results depend on the processing

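No SLC25 gene was called under any alternative, and the median change of the family kept its sign in AAV-hGRB against AAV-GFP and against PBS under every alternative except within slide 6 (0.000873 against AAV-GFP). Its value was -0.33 within slide 5 against AAV-GFP. The median of AAV-GFP minus PBS was 0.20 within slide 5, -0.05 within slide 1 and -0.06 within slide 6. The number of carriers without overlap depended more on the settings. Against AAV-GFP it was 5 to 9 when 1 array was left out, the higher number when AAV-GFP replicate 1 or AAV-GFP replicate 3 was omitted. Leaving out an array cannot make separate groups overlap. This count could therefore only stay or rise, and the 5 named above had to remain. Slc25a25 dropped out with quantile scaling, and Slc25a28 with median scaling and normexp. Against PBS it was 3 with quantile scaling (Slc25a13, Slc25a16 and Slc25a28), 1 with median scaling (Slc25a10) and 2 with normexp (Slc25a10 and Slc25a16). For AAV-GFP against PBS it was 2 with median scaling and 1 to 6 when 1 array was left out, with 2 without AAV-GFP replicate 1, 2 without PBS replicate 2 and 6 without PBS replicate 3. The same holds for every count with 1 array left out, and the cause of the other shifts was not tested. For single carriers, 126 values moved by more than the spread between replicates and 2364 did not. Leaving out 1 array cannot move a change that far, and the series matrix values and replicate block return the same change. The 2364 are therefore no measure of stability. With array weights, 67 of all probes were called in AAV-hGRB against PBS, against 0 otherwise, and none was a carrier. The labels give all groups the same replicate numbers, and correlations of same-numbered arrays ran from -0.43 to 0.59. Both extremes were between replicate 3 arrays, which all lie on slide 6. These values show no steady pairing by number and cannot exclude one. With the replicate block 0 carriers were called. The family medians were -0.19, -0.17 and 0.02, which this block cannot change because each number occurs once per group. Normexp set the median of all probes at 0.05 in AAV-hGRB against both AAV-GFP and PBS, where the values as reported were -0.05 and -0.06, so small changes depend on the scaling. Low signal limits Slc25a18, Slc25a31 and Slc25a34, which were well above background on fewer than 12 arrays, and the probe A_52_P359088 of Slc25a25. The dim Slc25a2 and Slc25a35 were well above background on all 12 arrays, and each also turned sign with normexp in 1 comparison.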

Other observations

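Slc25a25, Slc25a29, Slc25a51 and Slc25a17 had values above 0 in AAV-GFP against PBS (1.32, 0.52, 0.53 and 0.43) and near or below 0 in AAV-hGRB against PBS (-0.41, -0.07, -0.08 and 0.00). These genes were picked after their values were seen, and both comparisons share the PBS arrays. In AAV-GFP against PBS the other Slc25a25 probes gave 1.31 and 1.05. The second Slc25a29 probe gave 0.08, the other Slc25a17 probes 0.40 and 0.07, and the Slc25a51 probe under an older name 0.11. Without AAV-GFP replicate 3, Slc25a29 and Slc25a51 gave 0.34 and 0.37. A further probe that carries an older name of Slc25a40, left out of the members for want of a RefSeq accession, was well above background on all 12 arrays, with changes of -0.21 in AAV-hGRB against AAV-GFP and -0.14 against PBS.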
